A study of Mus musculus with 48 samples.

Results

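Total RNA of the mediobasal hypothalamus (MBH) was compared between mice given AC3174 and mice given saline. The 6 libraries were chosen by their labels alone, as 3 MBH input libraries of AC3174 and 3 of saline, out of 48 libraries in the series. All of them came from male C57/Bl6 mice aged 9 weeks, kept on chow, fasted for 6 h and injected intraperitoneally with 10 µL per g of body weight. The AC3174 mice received 1 µg/kg of AC3174, an agonist of the receptor for glucagon-like peptide 1 (GLP-1), and the controls received saline. Mice of the other groups received AC170222, a cholecystokinin (CCK) receptor agonist, or both drugs. The protocol gives more than one dose and spelling for that second drug and also mentions exenatide, so the doses in those groups are not certain. Neither the time between injection and dissection nor the number of mice behind each library is given in the sources used here. Input RNA was taken from a 25 µL aliquot of the clarified homogenate, before RNA on ribosomes carrying phosphorylated S6 was pulled down (IP). The series also holds the dorsal vagal complex (DVC), a hindbrain region that receives gut signals.

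GLP-1 is a gut and brainstem peptide that lowers food intake. Its receptor couples to the stimulatory G protein, which raises cyclic AMP (cAMP). cAMP releases the catalytic subunits of protein kinase A (PKA) from their regulatory subunits, and PKA phosphorylates CREB, a factor that binds cAMP response elements and switches on immediate early genes such as Fos. The MBH holds the arcuate nucleus, where neurons making Agrp and Npy promote feeding and neurons making Pomc and Cartpt restrain it, and GLP-1 receptors are known on the Pomc and Cartpt neurons.

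The 3 AC3174 libraries held 36542586, 59608353 and 55549950 counts over 15991, 15860 and 15774 genes, and the 3 saline libraries held 73279672, 56148585 and 77189727 counts over 16247, 12853 and 16786 genes. Saline library 2 stood apart. It had 4780 of the tested genes at 0, against 2068 to 2234 in AC3174 libraries and 1956 and 1606 in the other saline libraries, and its median correlation with the other 11 MBH inputs was 0.780, against 0.906 to 0.943 for those 11. Hypothalamic patterning factors summed to 451.5 to 788 CPM (counts scaled to library size, here over all 24 inputs) in the 12 MBH inputs and to 31.9 to 85.2 CPM in the 12 DVC inputs, and the hindbrain factors Hoxb4 and Hoxb5 were at 0 in all 12 MBH inputs. Mitochondrially encoded mRNA was 16160, 3880 and 1814 CPM in AC3174 libraries and 10890, 6935 and 1275 CPM in saline libraries.

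No gene differed between AC3174 and saline MBH at an adjusted p under 0.05 in edgeR's quasi-likelihood test (16622 genes tested, 0% called, smallest adjusted p 0.348). At an unadjusted p under 0.05, 728 genes were higher (4.38%) and 699 were lower (4.21%) in AC3174. All 3 AC3174 libraries lay above all 3 saline libraries for 1009 genes (6.07%) and below them for 697 genes (4.19%). An exact permutation test of 3 against 3 libraries cannot go below a p of 0.1 for a single gene. DESeq2 called 848 of 16468 genes (5.15%), 473 higher and 375 lower, and gave no adjusted p for 6164 genes. Limma-voom called 4 genes (0.0241%), Wdr76, Echdc2, Mgmt and Gm5532, all higher. The biological coefficient of variation in the edgeR fit was 1.12, and 604 of the 1427 genes at an unadjusted p under 0.05 (42.3%) had at least 1 of the 6 libraries at 0. Without saline library 2, 1295 genes had an unadjusted p under 0.05 and 0 were called. The values of single genes between AC3174 and saline MBH are therefore given as descriptions of these libraries.

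The difference between the groups also varied with transcript length. Among the 8206 genes with at least 1 CPM in all 6 libraries, the median log2 difference was -0.34 in the tenth with the shortest transcripts (57 to 1216 bases) and 0.10 in the tenth with the longest (6685 to 123179 bases). Without saline library 2 these medians were -0.10 and 0.06. The part of transcript length in the gene values below was not tested. In these 8206 genes, 279 were higher (3.40%) and 458 were lower (5.58%) at an unadjusted p under 0.05. Over all 16622 tested genes, the 728 passing that threshold upwards had a median level of 3.73 CPM over the 6 libraries. The 699 passing it downwards had 43.4 CPM, and all tested genes had 14.9 CPM.

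Among genes counted at 1 CPM or more in all 6 libraries, the 10 of smallest p in the AC3174 direction included factors of gene regulation, protein turnover and signalling. Nkx2-1, the homeobox factor that sets ventral hypothalamic identity (chromosome 12, 56531958 to 56536908, GRCm38, minus strand), had 35.7, 34.1 and 51.2 CPM in AC3174 libraries, against 5.56, 6.25 and 6.22 CPM in saline libraries. The means were 40.3 ± 9.46 CPM in AC3174 and 6.01 ± 0.391 CPM in saline (SD, n = 3 each), and the groups did not overlap. The log2 difference was 2.75 ± 0.58 (SE), with an adjusted p of 0.449 in edgeR. In bulk RNA of this kind, more cells of a type and more RNA per cell cannot be told apart. Habp4, which encodes a hyaluronan and RNA binding protein, had 514, 744 and 740.4 CPM in AC3174 libraries, against 78.7, 66.5 and 122 CPM in saline libraries. Ubqln1, encoding a ubiquilin that carries ubiquitinated proteins to the proteasome, had 295, 355 and 555 CPM in AC3174 libraries, against 60.7, 52.8 and 107 CPM in saline libraries. Both genes thus lay several times higher in each AC3174 library than in any saline library, with log2 differences of 2.90 ± 0.65 and 2.45 ± 0.54 and an adjusted p of 0.449 each in edgeR. Fyn, a Src family tyrosine kinase, had 140.3, 156 and 148 CPM in AC3174 libraries, against 30.2, 17.5 and 60.2 CPM in saline libraries. Cdk16, a kinase of the cyclin-dependent family, had 128, 148 and 243 CPM in AC3174 libraries, against 26.6, 14.0 and 43.7 CPM in saline libraries. The groups were apart for both kinases, and saline library 2 was the lowest of all 6.

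Smaller and tighter differences were seen for Mef2d and Lysmd2. Mef2d, a transcription factor that neuronal activity regulates, had 146, 146 and 164 CPM in AC3174 libraries, against 81.1, 58.9 and 61.0 CPM in saline libraries. Lysmd2, a gene of the LysM domain family, had 155, 156 and 157 CPM in AC3174 libraries, against 78.6, 79.1 and 99.5 CPM in saline libraries. The 3 AC3174 values of Lysmd2 were almost equal, and its log2 difference was 0.86 ± 0.18. Uri1, a prefoldin-like chaperone, had 82.1, 104 and 129 CPM in AC3174 libraries, against 25.5, 20.8 and 35.9 CPM in saline libraries. Pan3, a subunit of a poly(A) deadenylase, had 16.0, 49.0 and 16.8 CPM in AC3174 libraries, against 2.52, 3.10 and 3.35 CPM in saline libraries. Rnf19b, a ubiquitin ligase, had 27.7, 19.5 and 14.6 CPM in AC3174 libraries, against 1.70, 1.27 and 3.59 CPM in saline libraries. In Pan3 and Rnf19b the saline libraries stayed under 4 CPM. These log2 differences were 1.94 ± 0.41 for Uri1, 3.19 ± 0.67 for Pan3 and 3.24 ± 0.64 for Rnf19b, and all 10 genes had an adjusted p of 0.449 in edgeR.

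Of the 10 genes of smallest p in the other direction, N4bp2l2 came first. It had 21.8, 23.4 and 18.9 CPM in AC3174 libraries, against 69.7, 86.6 and 47.4 CPM in saline libraries, a log2 difference of -1.67 ± 0.31 with an adjusted p of 0.449 in edgeR. Nrxn3, a presynaptic adhesion molecule of the neurexin family, had 39.7, 33.4 and 39.5 CPM in AC3174 libraries, against 114, 72.4 and 67.5 CPM in saline libraries. Gjc3, the connexin of oligodendrocyte gap junctions, had 13.5, 8.76 and 8.50 CPM in AC3174 libraries, against 87.4, 32.6 and 31.7 CPM in saline libraries. The groups were apart in each of these genes, and saline library 1 was the highest for Gjc3 and Nrxn3. Eif2d, a translation initiation factor, had 16.6, 18.8 and 18.6 CPM in AC3174 libraries, against 54.5, 114 and 32.7 CPM in saline libraries. Its AC3174 values lay close together while its saline values were widely spread. Gabpb1, the beta subunit of the GA-binding transcription factor, had 10.8, 16.5 and 12.6 CPM in AC3174 libraries, against 35.5, 31.5 and 39.6 CPM in saline libraries. Zkscan6, a zinc finger gene, had 8.39, 10.8 and 5.72 CPM in AC3174 libraries, against 29.7, 55.4 and 49.5 CPM in saline libraries. Rnf6, a ubiquitin ligase, had 125, 131 and 113 CPM in AC3174 libraries, against 193, 237 and 212 CPM in saline libraries. The means of Rnf6 were 123 ± 9.23 CPM in AC3174 and 214 ± 21.8 CPM in saline (SD, n = 3 each), with libraries close together within each group. Glrx, which encodes the thiol reductase glutaredoxin, had 64.1, 80.7 and 49.2 CPM in AC3174 libraries, against 113, 169 and 126 CPM in saline libraries. Angel2 had 60.5, 36.8 and 46.2 CPM in AC3174 libraries, against 109, 106 and 90.0 CPM in saline libraries. The long noncoding RNA 4732491K20Rik had 2.51, 5.06 and 4.61 CPM in AC3174 libraries, against 24.0, 60.6 and 16.5 CPM in saline libraries. The log2 differences of these 10 genes ran from -3.05 for 4732491K20Rik to -0.80 for Rnf6, and their adjusted p values in edgeR from 0.449 to 0.533.

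**Figure D1:**
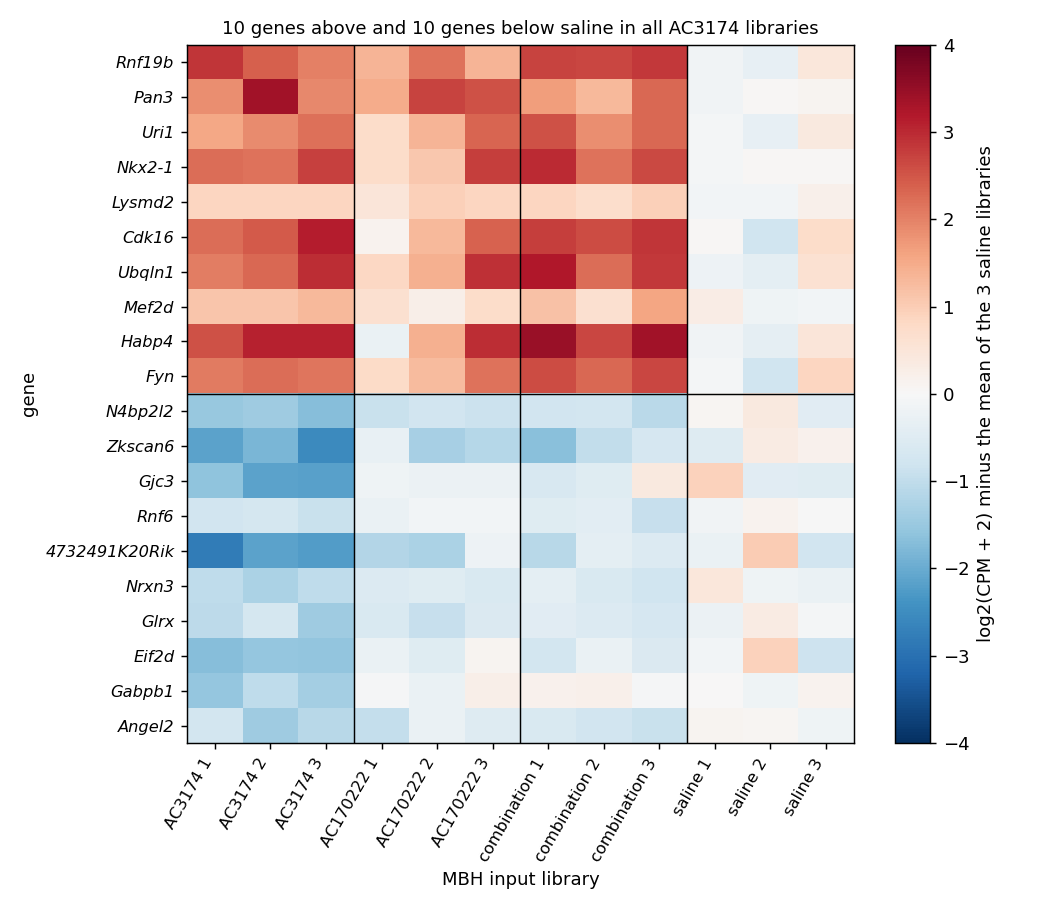
Each row is one of the 20 genes with at least 1 CPM in all 6 libraries, each column one of the 12 MBH inputs, and colour gives log2(CPM + 2) minus the mean of the 3 saline libraries. The upper 10 genes are red in all AC3174 and combination columns and weaker in AC170222 library 1, while the lower 10 are blue in the AC3174 columns and mostly paler in the other drug columns.

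The same 20 genes can be read in the other 6 drug libraries, which were set against the same saline libraries. Habp4 had 953, 565 and 894 CPM in combination libraries and 71.0, 235 and 684 CPM in AC170222 libraries. Nkx2-1 had 61.3, 34.1 and 48.2 CPM in combination libraries and 11.4, 15.0 and 51.9 CPM in AC170222 libraries. Ubqln1 had 658, 335 and 505 CPM in combination libraries and 125, 193 and 549 CPM in AC170222 libraries. For these 3 genes the combination libraries and AC170222 library 3 lay near the AC3174 values, and AC170222 library 1 was the lowest of these 6. Of the 10 lower genes, N4bp2l2, Nrxn3, Glrx and Angel2 lay below all saline values in all 6 of these libraries. N4bp2l2 had 37.9, 38.6 and 30.3 CPM in combination libraries and 34.4, 37.7 and 35.7 CPM in AC170222 libraries. Nrxn3 had 62.3, 53.3 and 46.1 CPM in combination libraries and 56.3, 58.0 and 53.1 CPM in AC170222 libraries. Their levels lay between those of AC3174 and saline. Gabpb1 had 40.4, 41.4 and 34.5 CPM in combination libraries and 33.9, 29.0 and 42.5 CPM in AC170222 libraries, values that overlapped saline, and Gjc3, Eif2d, Zkscan6, Rnf6 and 4732491K20Rik also had at least 1 of the 6 libraries within or above the saline range. Since all 3 drug groups were set against one group of saline libraries, their differences from saline are not independent of each other.

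Several genes were at or near 0 in one group. Zfp41, a zinc finger gene, had 41.5, 6.27 and 22.1 CPM in AC3174 libraries, against 0, 0 and 0 CPM in saline libraries, so that it was at least 1560.0-fold higher in AC3174 against a floor of 3 counts over the saline group. Brwd3, a bromodomain gene, had 1.06, 16.2 and 15.1 CPM in AC3174 libraries, against 0, 0 and 0 CPM in saline libraries and was at least 723-fold higher. Echdc2, a gene of the enoyl-CoA hydratase family, had 12.6, 4.74 and 9.33 CPM in AC3174 libraries, against 0, 0 and 0 CPM in saline libraries and was at least 595-fold higher. In each of the 3 genes the AC3174 libraries differed among themselves, with Zfp41 lowest in library 2 and Brwd3 lowest in library 1. Nwd2 had 1.32, 2.61 and 30.9 CPM in AC3174 libraries, against 0, 0 and 0 CPM in saline libraries and was at least 778-fold higher. Its level rested mostly on library 3. Gm5532, a long noncoding RNA, had 13.1, 10.9 and 7.98 CPM in AC3174 libraries, against 0, 0.0189 and 0 CPM in saline libraries. Sema6a, a transmembrane semaphorin, had 41.2, 21.4 and 19.8 CPM in AC3174 libraries, against 0.301, 1.68 and 0.454 CPM in saline libraries, and Cdan1, the mouse homologue of the human anaemia gene codanin 1, had 26.5, 15.5 and 22.4 CPM in AC3174 libraries, against 1.64, 0.888 and 0.293 CPM in saline libraries. These genes had traces of counts in saline and were well above them in each AC3174 library. Every AC170222 and combination library of MBH also held counts of Zfp41, Brwd3, Echdc2, Nwd2, Gm5532, Sema6a and Cdan1. Nwd2, for instance, had 2.55, 14.4 and 17.3 CPM in AC170222 libraries and 7.09, 15.2 and 3.13 CPM in combination libraries. Saline was thus the group at or near 0 in these genes. Sorcs2, a sorting receptor of the Vps10 family (chromosome 5, 36017180 to 36398139, GRCm38, minus strand), had 0, 0 and 0 CPM in AC3174 libraries, against 7.30, 34.2 and 6.12 CPM in saline libraries, and was at least 817-fold lower in AC3174. Akain1, which encodes a protein that binds PKA regulatory subunits, had 0.132, 0 and 0.0543 CPM in AC3174 libraries, against 5.80, 19.5 and 4.88 CPM in saline libraries. In all, 60 tested genes were at 0 in all saline libraries and counted in all AC3174 libraries, and 20 were the converse. The smallest adjusted p of these genes was 0.348 in edgeR (Zfp41 and Gm5532).

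The receptor of the drug was close to the detection limit. Glp1r (chromosome 17, 30901817 to 30940791, GRCm38, plus strand) had 0, 4.38 and 2.39 CPM in AC3174 libraries, against 5.82, 0 and 4.54 CPM in saline libraries. One library of each group was at 0, and the log2 difference was -0.61 ± 2.68. Gcg, the gene of the GLP-1 precursor, and Gcgr, the glucagon receptor gene, were at 0 in all 12 MBH inputs. Cckar, the CCK receptor of the gut and hindbrain type, had 7.36, 0.651 and 5.68 CPM in AC3174 libraries, against 0, 1.30 and 0 CPM in saline libraries. Cckbr, the other CCK receptor, had 21.8, 12.2 and 6.66 CPM in AC3174 libraries, against 6.39, 8.92 and 0 CPM in saline libraries. Both CCK receptors overlapped between groups. Gipr, the receptor for the incretin GIP, had 0, 0.130 and 1.45 CPM in AC3174 libraries, against 0, 0 and 0 CPM in saline libraries. Dpp4, the peptidase that inactivates GLP-1, was counted in AC3174 library 1 alone among the 6, at 1.24 CPM. Of the 9 genes of this list 6 were tested, 2 of them (Gipr and Dpp4, both at 0 in all saline libraries and in at least 1 AC3174 library) had an unadjusted p under 0.05 in the higher direction, against 4.38% of all genes, and the smallest adjusted p was 0.560 in edgeR. A count of 0 in 2 of the 6 libraries does not show that Glp1r was absent from those samples.

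Downstream of the receptor, 33 genes of the Gs, cAMP and CREB pathway were tested. Of these, 2 had an unadjusted p under 0.05 in the higher direction and 1 in the lower, and 5 lay above saline in all AC3174 libraries and none below. All genes gave 4.38% higher, 4.21% lower, 6.07% above and 4.19% below, so that the counts by p were near the background. Over the 33 genes, the median log2 difference was 0.16, against 0.01 over all genes. Prkar2b, a regulatory subunit of PKA with high levels in brain and fat, had 90.2, 154 and 163 CPM in AC3174 libraries, against 31.2, 44.7 and 52.0 CPM in saline libraries. Prkaca, the main catalytic subunit, had 59.4, 107 and 112 CPM in AC3174 libraries, against 32.2, 4.89 and 24.2 CPM in saline libraries. The log2 differences were 1.67 ± 0.43 for Prkar2b and 2.18 ± 0.80 for Prkaca, with an adjusted p of 0.56 each in edgeR. Gnal, a stimulatory G protein alpha subunit of the brain, had 150.5, 97.5 and 160.2 CPM in AC3174 libraries, against 61.3, 1.76 and 58.2 CPM in saline libraries. Adcy1, a calcium-stimulated adenylyl cyclase, had 18.2, 13.4 and 14.6 CPM in AC3174 libraries, against 4.93, 0 and 0 CPM in saline libraries. Prkar2a, a further regulatory subunit, had 55.0, 70.3 and 87.1 CPM in AC3174 libraries, against 42.4, 0.151 and 48.3 CPM in saline libraries. These 3 genes did not overlap between groups, but saline library 2 was near or at 0 for each. Gnb1, a G protein beta subunit, had 134, 172 and 119 CPM in AC3174 libraries, against 197, 816 and 128 CPM in saline libraries, where the high saline mean came from library 2. Gnas, the stimulatory alpha subunit itself, had 26.7, 28.2 and 17.9 CPM in AC3174 libraries, against 36.3, 21.8 and 19.6 CPM in saline libraries. Prkar1a, another regulatory subunit, had 2070.3, 2274 and 2566 CPM in AC3174 libraries, against 2280.0, 2168 and 2771 CPM in saline libraries. Neither Gnas nor Prkar1a was separated between groups, with log2 differences of -0.10 ± 0.40 and -0.06 ± 0.12. The phosphodiesterase Pde4b had 179.8, 140.0 and 246 CPM in AC3174 libraries, against 131, 82.6 and 171 CPM in saline libraries, and the CREB family genes Creb1 and Crem had log2 differences of 0.03 ± 1.42 and -0.22 ± 0.42.

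Immediate early transcription factors summed to 421, 568 and 484 CPM in AC3174 libraries, against 270.3, 233 and 402 CPM in saline libraries, so the group sums did not overlap. The sums were 590.2, 465.9 and 604.4 CPM in combination libraries and 349.4, 355.4 and 531.1 CPM in AC170222 libraries. Of the 21 genes, 16 had positive and 5 negative log2 differences, with a median of 0.59, against 8412 positive and 8067 negative over all genes. Jund, an AP-1 subunit, had 26.6, 76.5 and 65.0 CPM in AC3174 libraries, against 7.16, 4.86 and 4.78 CPM in saline libraries. Jun, its relative, had 92.6, 98.5 and 89.4 CPM in AC3174 libraries, against 26.6, 2.59 and 63.8 CPM in saline libraries. Egr1, a zinc finger factor induced by activity, had 102, 125 and 156 CPM in AC3174 libraries, against 73.1, 22.5 and 151 CPM in saline libraries. Jun and Jund did not overlap between groups, whereas the Egr1 value of saline library 3 lay between the AC3174 values. The log2 differences were 3.32 ± 1.01 for Jund, 1.59 ± 0.76 for Jun and 0.63 ± 0.51 for Egr1, with an adjusted p of 0.56 for Jund and Jun and 0.788 for Egr1 in edgeR. Egr4 had 10.0, 13.0 and 9.93 CPM in AC3174 libraries, against 0.602, 0 and 7.18 CPM in saline libraries, again without overlap. Maff, a small Maf factor, had 2.12, 2.85 and 0 CPM in AC3174 libraries, against 0, 0 and 0 CPM in saline libraries. Egr2 was counted in saline library 3 alone among the 6, at 7.30 CPM. At an unadjusted p under 0.05, 2 of the 21 genes were higher (Jund and Maff) and 1 was lower (Egr2), against 4.38% and 4.21% of all genes. Maff and Egr2 each had one group wholly at 0. All AC3174 libraries lay above saline for 4 genes and below for none, against 6.07% and 4.19% of all genes.

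The gene most used as a mark of neuronal activation showed no such separation. Fos had 43.0, 26.8 and 21.2 CPM in AC3174 libraries, against 25.4, 43.2 and 25.1 CPM in saline libraries, with a log2 difference of -0.04 ± 0.42 and an adjusted p of 1 in edgeR. Fosb had 0.0794, 0.0488 and 2.70 CPM in AC3174 libraries, against 1.85, 0 and 0.0267 CPM in saline libraries. Junb had 65.0, 60.2 and 44.5 CPM in AC3174 libraries, against 26.7, 47.7 and 49.5 CPM in saline libraries. The Fos values of both groups covered the same range, from 21.2 to 43.0 CPM in AC3174 and from 25.1 to 43.2 CPM in saline. Nr4a1, an orphan nuclear receptor induced by cAMP, had 16.6, 33.5 and 9.73 CPM in AC3174 libraries, against 13.5, 26.0 and 13.4 CPM in saline libraries. Npas4, a factor induced by calcium entry, had 0, 0 and 11.1 CPM in AC3174 libraries, against 0, 0 and 1.07 CPM in saline libraries. Arc, whose product acts at synapses, had 15.2, 0 and 34.3 CPM in AC3174 libraries, against 7.42, 26.2 and 23.1 CPM in saline libraries. All of these overlapped between the groups. Among 18 other activity-induced genes, such as Bdnf, Vgf, Dusp1 and Sik1, none had an unadjusted p under 0.05, 9 log2 differences were positive and 9 negative, and the sums were 644, 665 and 609 CPM in AC3174 libraries, against 599, 599.6 and 642 CPM in saline libraries.

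**Figure D2:**
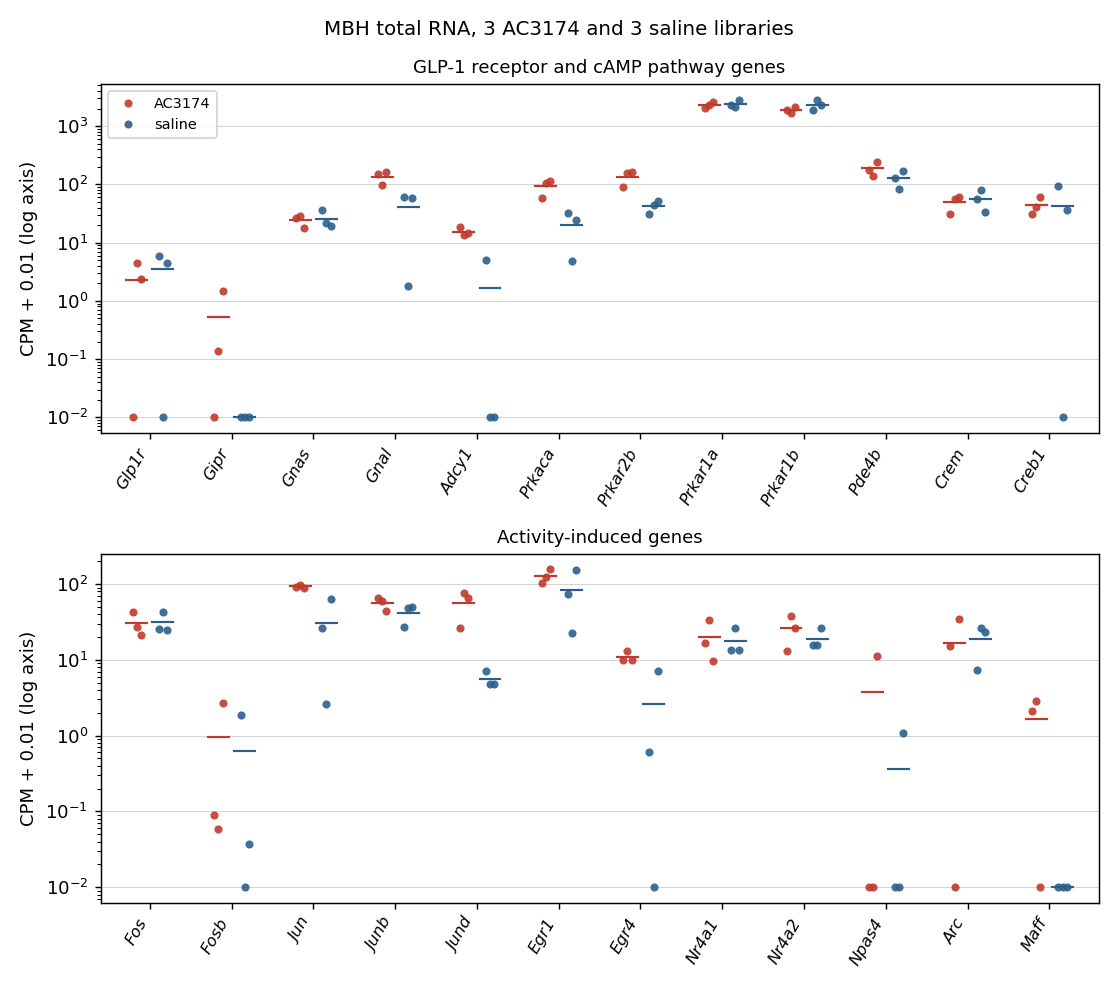
Points are CPM + 0.01 per library on a log axis, AC3174 (red) left of saline (blue), and lines are group means. Prkar2b, Prkaca, Jun and Jund have all AC3174 points above the saline points, whereas Glp1r, Gnas, Fos and Nr4a1 overlap, and points at 0.01 are libraries with no count.

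Since cAMP acts on transcription through the cAMP response element, its palindrome TGACGTCA was searched in the 250 bases upstream of RefSeq transcript starts (GRCm38.p6). Being a palindrome, it reads alike on both strands. It was found upstream of 478 of 27025 genes (1.77%). Of the 429 listed genes 319 had a promoter in the table and 18 of these held the element (5.64%). Of the 18, 8 members of the neuropeptide, granin and activity lists are shown, because such genes are a known type of target, and Btg2 of the activity lists is only named. Each 30 base window is written in the direction of transcription, with the element in capitals.
Sst, chr16:23890874-23890903 (minus strand), element 48 bases before the start: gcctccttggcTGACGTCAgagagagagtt
Cartpt, chr13:99900777-99900806 (minus strand), 112 bases before: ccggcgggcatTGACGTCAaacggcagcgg
Th, chr7:142900022-142900051 (minus strand), 45 bases before: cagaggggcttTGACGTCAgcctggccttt
Chgb, chr2:132781559-132781588 (plus strand), 72 bases before: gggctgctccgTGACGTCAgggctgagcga
Scg2, chr1:79440076-79440105 (minus strand), 68 bases before: ggctgagccggTGACGTCAgcgtggaatgc
Pcsk1, chr13:75089768-75089797 (plus strand), 78 bases before: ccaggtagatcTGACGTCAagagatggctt
Maff, chr15:79347480-79347509 (plus strand), 29 bases before: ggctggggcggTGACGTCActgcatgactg
Dusp1, chr17:26508597-26508626 (minus strand), 143 bases before: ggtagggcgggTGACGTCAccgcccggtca
All 18 genes were tested. Their log2 differences were positive in 11 and negative in 7, with a median of 0.13. Maff had an unadjusted p under 0.05 in the higher direction and Sst in the lower, where all genes gave 4.38% higher and 4.21% lower. No gene of the 18 lay above saline in all AC3174 libraries and Sst and Chgb lay below in all, where all genes gave 6.07% above and 4.19% below, so these counts are near the background. A match describes the letters of the window and not binding of CREB in these samples. Gene positions in this text are from GENCODE, whose starts can differ from RefSeq starts. The Sst window thus lies inside the Sst interval given below.

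Sst, the somatostatin gene (chromosome 16, 23889573 to 23890958, GRCm38, minus strand), was the arcuate peptide gene whose groups were apart. It had 67.6, 76.9 and 49.8 CPM in AC3174 libraries, against 102, 99.9 and 87.3 CPM in saline libraries, with means of 64.7 ± 13.8 CPM in AC3174 and 96.3 ± 7.85 CPM in saline (SD, n = 3 each). The log2 difference was -0.57 ± 0.22, with an adjusted p of 0.56 in edgeR. Sst had 60.7, 50.1 and 60.6 CPM in combination libraries and 62.0, 65.0 and 58.8 CPM in AC170222 libraries, all 6 below the saline values as well. The feeding peptides of the arcuate nucleus overlapped between groups. Npy had 90.9, 108 and 60.1 CPM in AC3174 libraries, against 52.4, 86.4 and 51.4 CPM in saline libraries. Agrp had 18.8, 20.8 and 7.36 CPM in AC3174 libraries, against 7.82, 13.4 and 7.27 CPM in saline libraries. Both had their highest value in AC3174 library 2 and log2 differences of 0.44 ± 0.33 and 0.72 ± 0.71, with adjusted p values of 0.756 and 0.874 in edgeR. On the opposing side, Pomc had 97.9, 103 and 64.2 CPM in AC3174 libraries, against 61.3, 78.5 and 87.7 CPM in saline libraries. Cartpt had 74.4, 58.3 and 43.0 CPM in AC3174 libraries, against 97.0, 70.6 and 58.3 CPM in saline libraries. Their log2 differences were 0.22 ± 0.31 and -0.36 ± 0.29, with adjusted p values of 0.939 and 0.786 in edgeR. Th, the rate-limiting enzyme of dopamine synthesis, had 188, 211 and 164 CPM in AC3174 libraries, against 123, 395 and 207 CPM in saline libraries. Ghrh, the growth hormone releasing peptide gene, had 5.08, 17.8 and 7.49 CPM in AC3174 libraries, against 14.2, 10.2 and 12.1 CPM in saline libraries. The groups overlapped in both genes. Of 14 arcuate peptide genes tested, 4 log2 differences were positive and 10 negative, with a median of -0.29 that was -0.33 without saline library 2.

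Peptide genes of the lateral, paraventricular and other hypothalamic nuclei were negative in 10 of 13 cases, with a median log2 difference of -0.75. Hcrt, the orexin gene of the lateral hypothalamus, had 10.3, 17.6 and 3.26 CPM in AC3174 libraries, against 100.1, 23.7 and 12.8 CPM in saline libraries. Pmch, the melanin-concentrating hormone gene of the same area, had 75.5, 59.9 and 42.5 CPM in AC3174 libraries, against 145, 111 and 48.5 CPM in saline libraries. In both, saline library 1 was the highest and AC3174 library 3 the lowest, and the groups overlapped. Their adjusted p values were 0.56 and 0.593 in edgeR. Avp had 63.2, 148 and 84.9 CPM in AC3174 libraries, against 159, 8.07 and 131 CPM in saline libraries, and Oxt had 30.1, 38.5 and 16.3 CPM in AC3174 libraries, against 44.2, 35.0 and 32.4 CPM in saline libraries. These are the genes of vasopressin and oxytocin, made in the paraventricular and supraoptic nuclei. Crh, the corticotropin releasing hormone gene, was at 0 in all AC3174 libraries and had 0.616, 0.756 and 0 CPM in saline libraries. Trh had 10.5, 10.0 and 15.4 CPM in AC3174 libraries, against 13.1, 16.2 and 11.1 CPM in saline libraries. The summed level of this list was 232, 294 and 207 CPM in AC3174 libraries, against 525, 267 and 265 CPM in saline libraries, and saline library 1 gave the highest sum.

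**Figure D3:**
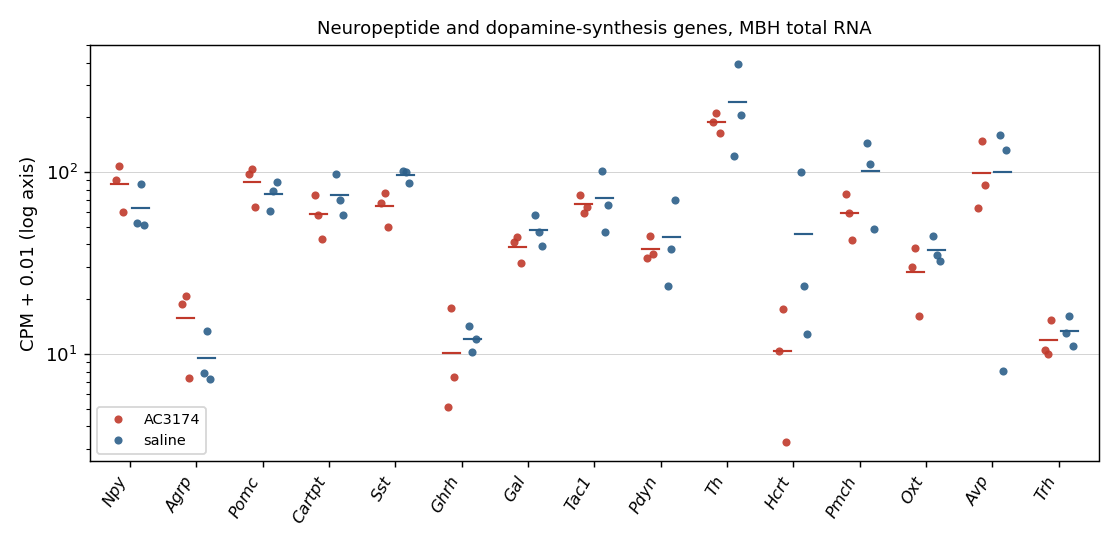
Points are CPM + 0.01 per library on a log axis for 14 neuropeptide genes and Th, AC3174 (red) left of saline (blue), with lines at group means. Sst is the gene whose 3 red points lie below all 3 blue points, and the Hcrt points of both groups are widely spread.

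Receptors that control appetite gave 23 tested genes, of which 2 had an unadjusted p under 0.05 in the higher direction and 1 in the lower, near the 4.38% and 4.21% of all genes. Insr, the insulin receptor gene, had 0, 0.0163 and 0 CPM in AC3174 libraries, against 1.55, 1.19 and 6.80 CPM in saline libraries. Its adjusted p was 0.449 in edgeR, and combination libraries had 4.24, 6.05 and 13.1 CPM. Calcr, the calcitonin receptor that forms part of amylin receptors, had 0.662, 26.5 and 0.326 CPM in AC3174 libraries, against 0, 0 and 0.0800 CPM in saline libraries. Prlhr, the receptor of prolactin-releasing peptide, had 1.75, 1.51 and 1.63 CPM in AC3174 libraries, against 0, 0 and 0 CPM in saline libraries. The Calcr difference came almost wholly from AC3174 library 2, while Prlhr was counted in each AC3174 library and in no saline library. Lepr, the leptin receptor gene, had 0.291, 6.51 and 0.181 CPM in AC3174 libraries, against 0.301, 0.302 and 1.44 CPM in saline libraries, and Mc4r, the melanocortin receptor gene, had 0, 7.85 and 4.79 CPM in AC3174 libraries, against 5.54, 0 and 0 CPM in saline libraries. Both overlapped between the groups, with log2 differences of 1.77 ± 1.72 and 1.19 ± 2.77. The fitted values of such low genes depend on libraries at 0 and set no bound.

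Hypothalamic patterning factors were positive in 15 of 20 genes, with a median log2 difference of 0.65 that was 0.52 without saline library 2. Besides Nkx2-1, 3 of the 20 genes had an unadjusted p under 0.05 in the higher direction, against 4.38% of all genes. Fezf1, a factor of ventromedial neurons, had 73.9, 134 and 118 CPM in AC3174 libraries, against 68.6, 57.7 and 81.7 CPM in saline libraries. Rax, a homeobox gene kept in tanycytes of the adult, had 17.1, 26.6 and 12.5 CPM in AC3174 libraries, against 5.71, 3.59 and 10.9 CPM in saline libraries. Nkx2-4, a close relative of Nkx2-1, had 12.7, 3.78 and 7.85 CPM in AC3174 libraries, against 0.192, 2.72 and 1.31 CPM in saline libraries. Rax and Nkx2-4 did not overlap between groups, and Fezf1 overlapped in AC3174 library 1. Each of the 3 had an adjusted p of 0.56 in edgeR. Onecut2 ran the other way and had 0.185, 0.114 and 11.3 CPM in AC3174 libraries, against 18.9, 30.1 and 14.9 CPM in saline libraries. The summed level of the list was 467, 794 and 669 CPM in AC3174 libraries, against 503, 454 and 643 CPM in saline libraries, with overlap. Nr5a1, the defining factor of the ventromedial nucleus, had 67.5, 109.8 and 44.4 CPM in AC3174 libraries, against 58.3, 0.132 and 88.9 CPM in saline libraries, so that saline library 2 nearly lacked it.

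Genes of prohormone processing and the granins were positive in 8 and negative in 5 of 13 cases. All AC3174 libraries lay above saline for 1 gene and below for 3, against 6.07% and 4.19% of all genes. Pcsk1n, an inhibitor of prohormone convertase 1, had 577, 432 and 328 CPM in AC3174 libraries, against 148, 11.2 and 329.5 CPM in saline libraries. Cpe, the carboxypeptidase that trims cut peptides, had 409, 268 and 297 CPM in AC3174 libraries, against 219, 155 and 265 CPM in saline libraries. Chgb, a granin of dense-core vesicles, had 71.4, 40.4 and 65.8 CPM in AC3174 libraries, against 81.8, 79.9 and 94.1 CPM in saline libraries. Cpe lay above and Chgb below saline in all AC3174 libraries, with log2 differences of 0.61 ± 0.33 and -0.53 ± 0.27. Pcsk2, prohormone convertase 2, had 52.8, 19.8 and 39.8 CPM in AC3174 libraries, against 54.3, 83.9 and 58.7 CPM in saline libraries. It too lay below saline in all AC3174 libraries, though AC3174 library 1 was close to saline library 1. Scg2, another granin, had 164, 279.9 and 228 CPM in AC3174 libraries, against 192, 229.9 and 205 CPM in saline libraries, and its groups overlapped. No member of this list had an unadjusted p under 0.05, and the smallest adjusted p was 0.564 in edgeR.

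Markers shared by most neurons summed to 8956, 8927 and 9386 CPM in AC3174 libraries, against 10710.0, 10110.0 and 10460.0 CPM in saline libraries, and the sums of the groups did not overlap. The combination sums were 9484, 9929 and 9520 CPM and the AC170222 sums 9441, 9628 and 8778 CPM. The sum over all genes tested also ran lower in AC3174 libraries. It was 966600, 970000 and 1004000 CPM there, against 1003000, 1060000 and 1029000 CPM in saline libraries, and its part in the neuronal sums was not tested. Elavl4, a neuronal RNA-binding protein gene, had 249, 269.9 and 256 CPM in AC3174 libraries, against 340.2, 349 and 316 CPM in saline libraries. Snap25, which encodes a protein of the synaptic vesicle fusion complex, had 2915, 2645 and 2959 CPM in AC3174 libraries, against 3485, 4401 and 2969 CPM in saline libraries. Eno2, the neuronal enolase, had 1174, 1413 and 1308 CPM in AC3174 libraries, against 1605, 1425 and 1827 CPM in saline libraries. These 3 genes lay below saline in all AC3174 libraries, with log2 differences of -0.38 ± 0.14, -0.35 ± 0.15 and -0.32 ± 0.13. Rbfox3, the gene of the NeuN antigen, lay above instead and had 188, 211 and 186 CPM in AC3174 libraries, against 86.1, 46.8 and 172 CPM in saline libraries. All 4 had an unadjusted p under 0.05 and an adjusted p of 0.56 in edgeR. In the whole list, 1 gene passed that threshold upwards and 3 downwards, against 4.38% and 4.21% of all genes. All AC3174 libraries lay above saline for 1 gene and below for 5, against 6.07% and 4.19% of all genes. Of the 15 genes, 11 were negative and 4 positive. Markers of inhibitory and excitatory neurons overlapped, with Gad1 at 491, 508 and 800.1 CPM in AC3174 libraries and 520.2, 686 and 717 CPM in saline libraries, and Slc17a6 at 81.7, 99.6 and 112 CPM in AC3174 libraries and 75.2, 90.2 and 72.5 CPM in saline libraries.

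Oligodendrocyte markers were negative in 11 of 12 genes, with a median log2 difference of -0.42, and summed to 2326, 1746 and 2004 CPM in AC3174 libraries, against 3520.0, 1917 and 2290.0 CPM in saline libraries. Mog, a myelin surface glycoprotein, had 11.1, 6.20 and 21.0 CPM in AC3174 libraries, against 35.6, 19.7 and 31.7 CPM in saline libraries. Cnp, an enzyme of myelin, had 461, 552 and 582 CPM in AC3174 libraries, against 786, 607 and 611 CPM in saline libraries. Mbp, the myelin basic protein gene, had 921, 666 and 784 CPM in AC3174 libraries, against 1341, 609 and 849.7 CPM in saline libraries. Saline library 1 held the highest values for all 3 genes. Precursor markers were positive in 6 of 8 genes. Olig1, a factor of the oligodendrocyte lineage, had 154, 159 and 146 CPM in AC3174 libraries, against 40.9, 0.151 and 126 CPM in saline libraries, and Pdgfra, the defining receptor of precursors, had 18.6, 14.8 and 22.3 CPM in AC3174 libraries, against 12.8, 0 and 5.63 CPM in saline libraries. Saline library 2 had nearly none of either, and without it the median of the precursor list was 0.58, against 1.15 with it.

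Astrocyte markers showed no common direction, with 5 positive and 7 negative genes, and Gfap was at 151, 160.4 and 163 CPM in AC3174 libraries and 174, 135 and 177 CPM in saline libraries. Tanycyte and ependymal markers were positive in 8 of 14 genes. Nes, an intermediate filament gene of tanycytes and progenitors, had 12.4, 11.3 and 8.70 CPM in AC3174 libraries, against 0.219, 0 and 0.614 CPM in saline libraries. Choroid plexus and meningeal markers were positive in 5 and negative in 6 genes. Of these, Dcn, the decorin gene of meningeal fibroblasts, had 21.8, 12.9 and 17.5 CPM in AC3174 libraries, against 3.48, 0.775 and 7.08 CPM in saline libraries. Col1a1 of the same list ran the other way, with 0.0794, 0 and 0 CPM in AC3174 libraries, against 2.98, 0 and 0 CPM in saline libraries. Nes and Dcn did not overlap between groups, and each had an adjusted p of 0.56 in edgeR. Microglial markers summed to 61.8, 35.1 and 70.5 CPM in AC3174 libraries, against 78.2, 47.4 and 51.1 CPM in saline libraries, with 6 positive and 6 negative genes. Tmem119, one of them and the only one with an unadjusted p under 0.05, was at 0 in all AC3174 libraries and at 4.34, 0 and 3.23 CPM in saline libraries. Endothelial markers were positive in 5 and negative in 5 genes and summed to 96.0, 77.3 and 66.3 CPM in AC3174 libraries, against 96.0, 105 and 41.2 CPM in saline libraries. Of these, Cldn5 and Slco1a4 were at 0 in all saline libraries and had 0, 4.64 and 0 CPM and 0, 12.3 and 9.32 CPM in AC3174 libraries. Choroid plexus and meningeal markers summed to 658, 336 and 113 CPM in AC3174 libraries, against 201, 1540.0 and 106 CPM in saline libraries, a spread set by Ptgds. Haemoglobin and heme synthesis genes summed to 131, 71.8 and 22.1 CPM in AC3174 libraries, against 125, 181 and 37.1 CPM in saline libraries, with alpha and beta globin copies that share reads. Of the pituitary markers, Prl was at 0 in all 12 MBH inputs. Tbx19, a corticotroph factor, was at 0 in AC3174 libraries and near 0 in saline libraries (0.0137, 0 and 0.253 CPM). It had 4.21, 10.0 and 4.47 CPM in AC170222 libraries and 6.41, 0.903 and 5.11 CPM in combination libraries. The pericyte list and the nuclear-retained RNA list had no gene with an unadjusted p under 0.05. The hindbrain list had none either, with 3 of its 13 genes tested. The part of these other cell types in the values above was not tested.

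Glucocorticoid-responsive genes were negative in 11 of 17 cases. At an unadjusted p under 0.05, 2 were higher and 1 was lower, against 4.38% and 4.21% of all genes. All AC3174 libraries lay above saline for 2 genes and below for none, against 6.07% and 4.19% of all genes. In both of the genes above, saline library 2 was the lowest of the 6. Fkbp5, a chaperone of the glucocorticoid receptor and its target, had 42.8, 39.9 and 63.6 CPM in AC3174 libraries, against 9.53, 4.63 and 15.0 CPM in saline libraries. Klf9, a Krüppel-like target of the same receptor, had 46.2, 78.0 and 82.4 CPM in AC3174 libraries, against 36.9, 3.80 and 20.5 CPM in saline libraries. Sgk1, a kinase induced by glucocorticoids, had 162, 83.1 and 181 CPM in AC3174 libraries, against 181, 325 and 188 CPM in saline libraries. Fkbp5 and Klf9 lay above saline in all AC3174 libraries, whereas Sgk1 was lowest in AC3174 library 2 and highest in saline library 2. Their log2 differences were 2.33 ± 0.62, 1.75 ± 0.69 and -0.70 ± 0.30, with an adjusted p of 0.56 each in edgeR. Fkbp5 had 98.1, 43.6 and 76.4 CPM in combination libraries and 12.1, 19.7 and 50.6 CPM in AC170222 libraries. Tsc22d3 and Per1, further targets, had log2 differences of -0.12 ± 0.21 and -0.82 ± 0.53, and that of Per1 was 0.19 without saline library 2.

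Heat shock chaperones summed to 2816, 3456 and 3039 CPM in AC3174 libraries, against 3510.0, 4307 and 4006 CPM in saline libraries, with no overlap between the groups. Hspd1, the mitochondrial chaperonin, had 207, 230.4 and 233 CPM in AC3174 libraries, against 281, 425 and 284 CPM in saline libraries. Hspa8, the constitutive cytosolic chaperone, had 1065, 1386 and 1156 CPM in AC3174 libraries, against 1339.7, 1872 and 1680.0 CPM in saline libraries. The Hspd1 groups were apart and the Hspa8 groups overlapped, with log2 differences of -0.56 ± 0.18 and -0.44 ± 0.14 and an adjusted p of 0.56 each in edgeR. Without saline library 2, which had the highest chaperone sum, the list median was -0.18, against -0.30 with it. The sum over all genes tested, given below, also ran lower in AC3174 libraries, and its part in the chaperone sums was not tested. Genes of the unfolded protein and integrated stress response summed to 1136, 1103 and 1125 CPM in AC3174 libraries, against 1195, 1159 and 1161 CPM in saline libraries. In this list 8 genes were positive and 9 negative, and none had an unadjusted p under 0.05. The sum over all genes tested was itself 966600, 970000 and 1004000 CPM in AC3174 libraries, against 1003000, 1060000 and 1029000 CPM in saline libraries, a gap of like size, so the sums of this list that do not overlap are not read as a difference. Hspa5, its main endoplasmic reticulum chaperone, had 85.0, 139 and 79.0 CPM in AC3174 libraries, against 106, 35.7 and 128 CPM in saline libraries.

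The mTOR and S6 kinase genes, which lie upstream of the phosphorylated S6 used for the IP, were balanced at 11 positive and 12 negative. Rps6, the ribosomal protein S6 gene itself, had 190.0, 171 and 108 CPM in AC3174 libraries, against 206, 229 and 171 CPM in saline libraries. Mtor had 80.1, 44.0 and 54.1 CPM in AC3174 libraries, against 47.7, 33.1 and 139.7 CPM in saline libraries. Neither was separated between groups. Cholesterol synthesis genes were positive in 8 and negative in 8 cases, and Hmgcs1, an early enzyme of the pathway, had 329, 169 and 436 CPM in AC3174 libraries, against 447, 275 and 529 CPM in saline libraries. Among 17 clock genes none had an unadjusted p under 0.05. Dbp, an output gene of the clock, had 86.2, 101 and 71.3 CPM in AC3174 libraries, against 13.2, 0.0189 and 45.4 CPM in saline libraries, and Nr1d1, a repressor within it, had 117, 115 and 136 CPM in AC3174 libraries, against 136, 149.6 and 126 CPM in saline libraries. Dbp was above saline in all AC3174 libraries, with saline library 2 near 0, and Nr1d1 overlapped. Of the 13 mitochondrially encoded genes 12 were positive, with a median log2 difference of 0.21.

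**Figure D4:**
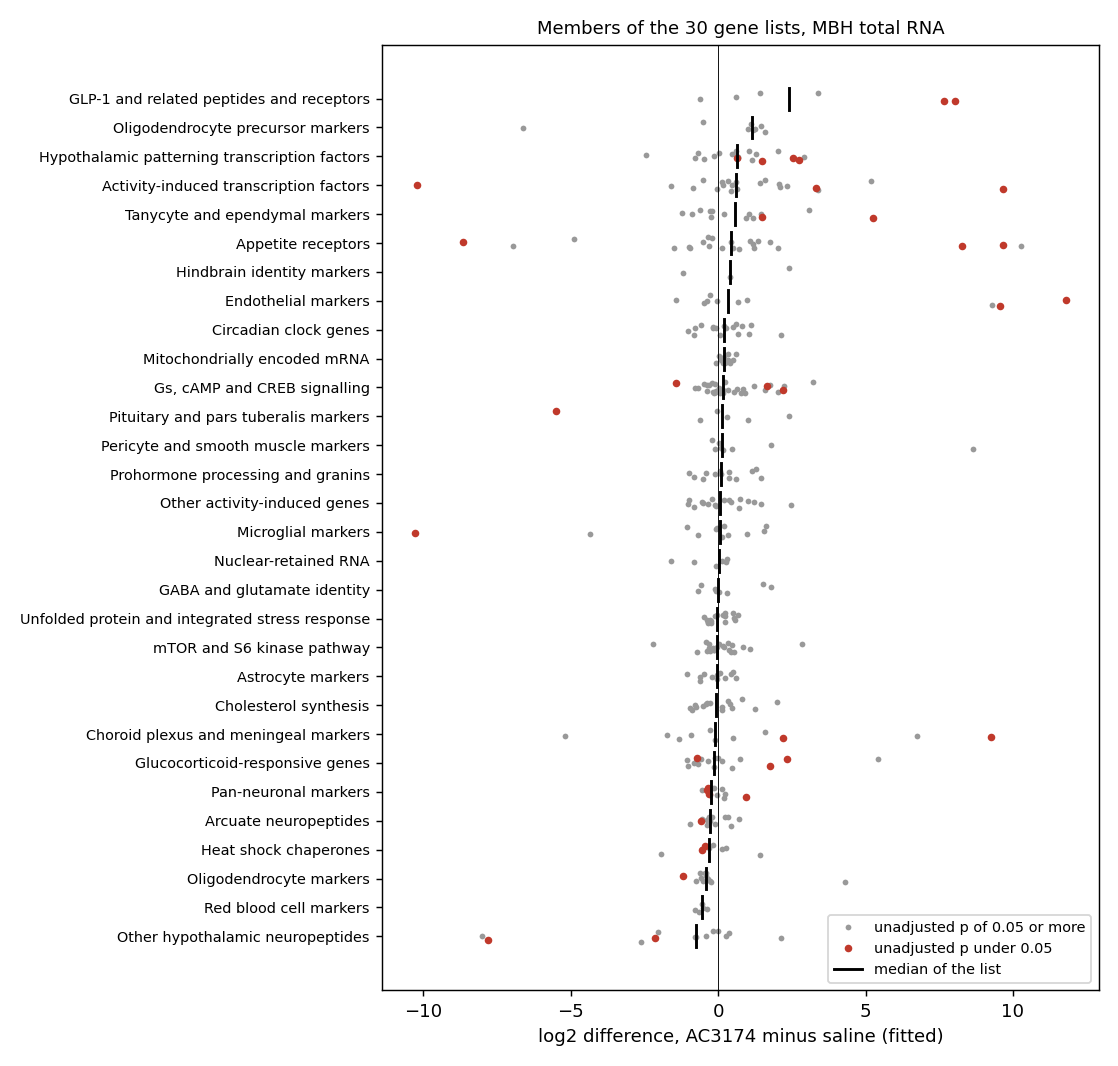
Each point is one tested member of a gene list, placed by its fitted log2 difference between AC3174 and saline MBH, red where the unadjusted p was under 0.05, and black bars are list medians. Most medians lie within 1 log2 unit of 0, and points far out on either side are genes with libraries at 0, whose fitted values are no bounds.

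Whether the AC3174 difference in MBH was the same as in DVC was tested over the 24 input libraries, with CPM scaled over all 24. Of 18576 genes 4 passed the adjusted threshold (0.0215%), and 1525 had an unadjusted p under 0.05 (8.21%). Zfp41 had 41.1, 6.22 and 22.0 CPM in AC3174 MBH, against 0 in all saline MBH libraries. In DVC it had 16.2, 16.7 and 4.01 CPM with AC3174, against 26.3, 6.08 and 17.9 CPM with saline. Cgnl1, encoding a junction protein related to cingulin, had 7.30, 0.662 and 0.234 CPM in AC3174 MBH and 0 in saline MBH. Its DVC values were 32.4, 22.7 and 26.4 CPM with AC3174 and 27.4, 32.0 and 20.7 CPM with saline. Both genes were thus counted in DVC under either treatment, and of the 6 MBH libraries only in those of AC3174. The other MBH drug libraries held both as well, Zfp41 at 16.8, 13.9 and 1.51 CPM in AC170222 and 15.6, 18.6 and 7.01 CPM in combination libraries, and Cgnl1 at 2.81, 2.63 and 1.03 CPM in AC170222 and 3.33, 3.40 and 4.19 CPM in combination libraries, so the saline group was the one at 0. Akain1 had 0.131, 0 and 0.0540 CPM in AC3174 MBH, against 5.77, 19.4 and 4.85 CPM in saline MBH. In DVC it had 69.3, 42.8 and 47.8 CPM with AC3174, against 59.1, 50.6 and 55.4 CPM with saline. Fam167a had 2.42, 8.19 and 12.3 CPM in AC3174 MBH, against 4.11, 43.0 and 6.30 CPM in saline MBH. Its DVC values were 2.04, 1.14 and 1.83 CPM with AC3174 and 0 in all saline libraries. The difference of Fam167a therefore came from DVC, and in MBH its groups overlapped. The log2 interactions, MBH minus DVC, were 13.95 ± 1.76 for Zfp41 (adjusted p 0.00763), 10.39 ± 1.56 for Cgnl1 (adjusted p 0.0246), -7.37 ± 1.05 for Akain1 (adjusted p 0.0108) and -10.93 ± 1.70 for Fam167a (adjusted p 0.0288), all by edgeR. Myo1e, an unconventional myosin gene, followed with an adjusted p of 0.0568. It had 18.6, 18.7 and 34.7 CPM in AC3174 MBH and 0 in saline MBH, with 26.3, 19.8 and 9.20 CPM in AC3174 DVC and 23.2, 8.56 and 33.5 CPM in saline DVC. Eif2d was next at 0.0869, with 49.8, 46.1 and 55.7 CPM in AC3174 DVC and 29.6, 38.7 and 26.8 CPM in saline DVC. The count of 4 became 8, 7 and 18 without MBH AC3174 libraries 1, 2 and 3. It became 26, 8 and 90 without MBH saline libraries 1, 2 and 3. Fam167a was not among the genes called without MBH AC3174 library 1 or without MBH AC3174 library 2. No DVC library was left out.

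**Figure D5:**
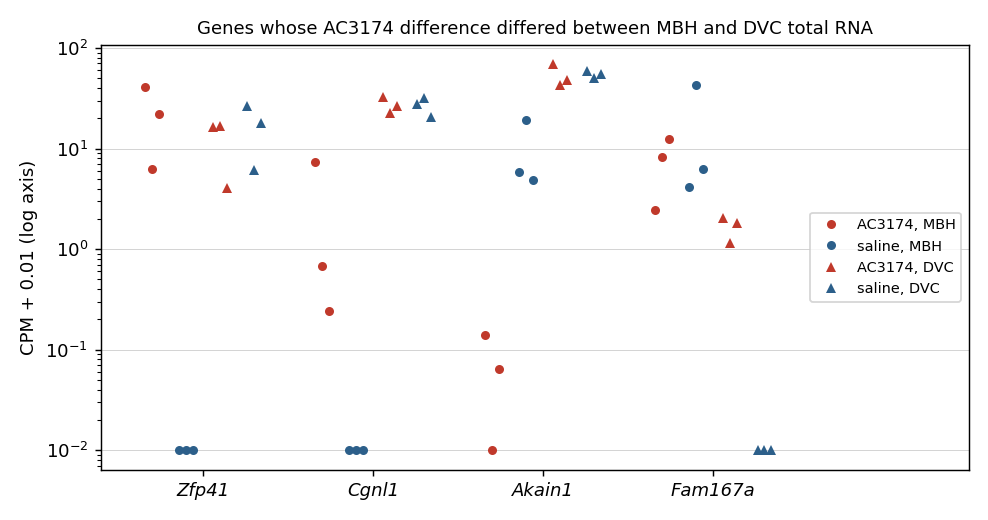
CPM + 0.01 per library on a log axis for the 4 genes whose AC3174 difference differed between regions, with MBH as circles, DVC as triangles, AC3174 in red and saline in blue. Zfp41 and Cgnl1 have saline MBH points at 0 (drawn at 0.01), Akain1 has low AC3174 MBH points, and Fam167a has saline DVC points at 0.

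Whether the AC3174 difference in total RNA differed from that in RNA of phosphorylated S6 ribosomes was tested over the 24 MBH libraries, with CPM scaled over them. Input and IP libraries of the same sample number may share a homogenate, but the fit treated them as independent. No gene passed the adjusted threshold (17461 genes tested, 0% called), and 959 had an unadjusted p under 0.05 (5.49%). The IP libraries of AC3174 held counts for 15393, 11006 and 6285 genes, and those of saline for 15514, 15130 and 11434 genes. The median log2 interaction over all genes was 0.40, and the part of this gap in detected genes was not tested. Tle2, a corepressor of the Groucho family, had 16.2, 20.3 and 4.62 CPM in AC3174 input, against 4.88, 1.02 and 34.3 CPM in saline input. In IP it was at 0 in all AC3174 libraries, against 23.6, 33.2 and 18.1 CPM in saline libraries. Lmnb1, the lamin B1 gene, and the noncoding 3110056K07Rik were likewise at 0 in all AC3174 IP libraries and counted in all saline IP libraries. The interaction was negative for the other 3 genes named. Miip was at 0 in all saline IP libraries and had 3.98, 25.9 and 0 CPM in AC3174 IP libraries. Kif20a, a mitotic kinesin gene, was at 0 in AC3174 input and had 1.54, 0.925 and 2.37 CPM in saline input. Sorcs2, at 0 in AC3174 input, had 21.5, 63.5 and 0 CPM in AC3174 IP libraries and 6.10, 0 and 0 CPM in saline IP libraries. All 6 genes had an adjusted p of 0.801 in edgeR.

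AC3174 libraries were also set against the other drug groups, comparisons in which the saline libraries bear on the estimate of spread but not on the difference. No gene was called against AC170222 (0%), with 652 genes at an unadjusted p under 0.05 (3.92%), 249 higher and 403 lower. Against the combination none was called (0%), with 474 genes at that threshold (2.85%), 46 higher and 428 lower. Sorcs2 was at 0 in all AC3174 libraries, and had 8.42, 13.7 and 0.123 CPM in AC170222 libraries and 5.15, 6.40 and 19.7 CPM in combination libraries. Akain1 was at or below 0.132 CPM in AC3174 libraries, and had 7.35, 3.10 and 5.18 CPM in AC170222 libraries and 6.81, 5.48 and 14.3 CPM in combination libraries. Insr, near 0 in AC3174, had 0.500, 2.90 and 7.58 CPM in AC170222 libraries. In these 3 genes the AC3174 libraries were the low ones against every other MBH group, with adjusted p values of 1 in edgeR for each of these comparisons. Kat14, a lysine acetyltransferase gene, had 47.6, 53.1 and 61.5 CPM in AC3174 libraries, 16.7, 17.9 and 24.0 CPM in AC170222 libraries and 23.5, 43.4 and 46.6 CPM in saline libraries. Ccdc14 had 13.9, 12.4 and 10.6 CPM in AC3174 libraries, 0.207, 0.0453 and 0.139 CPM in AC170222 libraries and 3.78, 0.737 and 1.28 CPM in saline libraries. Pde3a, a phosphodiesterase that breaks down cAMP, had 2.01, 0.879 and 13.6 CPM in AC3174 libraries, 0, 0 and 0 CPM in AC170222 libraries and 0, 0 and 0 CPM in saline libraries. Kat14 and Ccdc14 were thus apart between the single drugs in all libraries. Pde3a was counted in the AC3174 libraries of these 3 groups alone, but combination libraries also held it, at 1.42, 1.38 and 3.45 CPM. Galm, an enzyme of galactose use, was at 0 in AC3174 libraries, with 6.04, 15.0 and 5.81 CPM in AC170222 libraries and 1.23, 0.397 and 6.44 CPM in saline libraries. Against the combination, Tet2, a DNA demethylation enzyme, had 53.0, 20.4 and 57.9 CPM in AC3174 libraries, 11.3, 16.6 and 20.7 CPM in combination libraries and 14.2, 17.4 and 19.0 CPM in saline libraries. Poglut1, a glucosyltransferase that acts on Notch, had 157, 109 and 135 CPM in AC3174 libraries, 88.7, 62.4 and 101 CPM in combination libraries and 119, 128 and 118 CPM in saline libraries. Notch2 itself had 7.97, 0 and 21.4 CPM in AC3174 libraries, 0.0324, 0.0376 and 0 CPM in combination libraries and 0.739, 3.68 and 6.28 CPM in saline libraries. Tet2 and Poglut1 saline values lay close to each other, and Notch2 was at 0 in AC3174 library 2. The adjusted p of each of these 7 genes was 1 in edgeR. Genes at an unadjusted p under 0.05 against the combination were mostly lower in AC3174, and the combination libraries 1 and 2 held counts for more genes (18657 and 18614) than any AC3174 library.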

How the data were processed

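The authors deposited a table of raw read counts for 38293 Ensembl genes, in whole numbers, and every row has a gene identifier. Per the labels, RNA was amplified with a SMART-Seq v4 kit and made into Nextera XT libraries, which keep no strand, so reads of a gene and an overlapping antisense gene cannot be told apart. The tools were HTSeq 0.6.1p1 and TopHat2 2.0.11, and the build GRCm38, per the submitters' processing notes. The sources used here give neither the annotation nor the strand setting. No molecular identifiers were used, so counts include amplified copies. GENCODE M21 gave symbols for 36429 identifiers, 13 of which shared one.

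Genes were tested with edgeR 4.0.16 (TMM, filterByExpr, quasi-likelihood F test, 2-sided, R 4.3.3) over the 12 MBH inputs, so that 4 groups shared one estimate of spread. Benjamini-Hochberg adjustment ran over all genes tested, and genes were called at an adjusted p under 0.05. Interactions used the 24 inputs or the 24 MBH libraries, all treated as independent. Libraries of the same sample number were not paired across RNA kinds or regions. DESeq2 1.42.0, limma-voom 3.58.1, other scaling, filters, a replicate block and leaving out single MBH input libraries were alternatives. For the region and IP interactions these were the AC3174 and saline MBH inputs, so no DVC or IP library was left out. The steps were tested on simulated data. CPM used TMM-scaled library sizes; errors of CPM are SD, and errors of log2 differences are SE, taken as the log2 difference over the root of F. Folds against a group at 0 used a floor of 3 counts over the group and cover counting error only. Fitted log2 differences of genes with libraries at 0 depend on the prior count.

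The labels do not say that libraries of a group came from separate animals, so p values measure the spread between these libraries. Replicates were no copies of each other (lowest chi-square per degree of freedom 141.6). Kiss1, Lhb and Kcnq1ot1 were not analysed here.

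Named genes were a fixed panel of receptors, immediate early genes and peptides; per direction the 12 genes of smallest p without overlap and with a mean of at least 5 CPM in the higher group, and the 10 with at least 1 CPM in all 6 libraries; up to 2 per direction from each of 30 gene lists; and up to 3 per direction from each other comparison. Other list members were named to fill out their pathway. The members and lists were chosen with earlier results of these data known. The promoter search and the split by transcript length were added after seeing the data.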

Additional observations from a re-analysis of the deposited data

Results flagged for a closer look

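In 4 genes the AC3174 difference in total RNA was not the same in MBH and DVC by edgeR's test of the difference itself. The log2 difference in MBH minus that in DVC was 13.95 for Zfp41 and 10.39 for Cgnl1, which were counted in AC3174 MBH libraries and at 0 in saline MBH libraries while DVC libraries of both treatments and the MBH libraries of the other drug groups held them. It was -7.37 for Akain1, which was near 0 in AC3174 MBH libraries alone. It was -10.93 for Fam167a, which was at 0 in saline DVC libraries and was not called without MBH AC3174 library 1 or 2. No DVC library was left out. Each group holds 3 libraries, and each of these values rests on groups at or near 0.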

How the results depend on the processing

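The count of 0 genes called between AC3174 and saline MBH stayed 0 with RLE scaling, no filter, the 6 libraries alone, a robust fit, a name-suffix covariate and a filter of 10 counts in all 12 libraries. It was 848 with DESeq2, 4 with limma-voom and 0 to 7 when 1 library was left out, the 7 arising without saline library 3. The 1427 genes at an unadjusted p under 0.05 became 2336 with DESeq2, 391 with the 6 libraries alone, 812 with the strict filter and 1097 to 2236 when 1 library was left out, where 53.8% to 67.0% of the 1427 were shared. The 4 genes of the region interaction became 7 to 90 when 1 MBH input library was left out. The counts were 8, 7 and 18 without MBH AC3174 libraries 1, 2 and 3, and 26, 8 and 90 without MBH saline libraries 1, 2 and 3. No DVC library was left out. No gene was called in the comparisons with IP, AC170222 or the combination under any alternative run, none of which left out an IP library. When 1 library was left out, log2 differences crossed 0 for Col1a1 (-9.00 to 3.72, positive without saline library 1), Crhr2 (-10.73 to 3.72) and Cspg4 (-10.48 to 1.43, both positive without saline library 3), Lepr (-1.52 to 2.92, negative without AC3174 library 2), and Per1 (-1.17 to 0.19), Miat (-2.06 to 0.20) and Fam167a (-1.75 to 0.55, all positive without saline library 2). DESeq2 called 47 of 168 named genes, against 5.15% of all genes, and limma-voom 2, against 0.0241% of all genes. Named genes were partly chosen by smallest p in these same libraries, so their share cannot be compared with that of all genes. Limma-voom moved the median over all genes to 0.14. Of the 30 list medians, 11 moved by more than 1 SD without saline library 3. With the replicate number as a block, 0 genes were called, 1057 had an unadjusted p under 0.05, and the region interaction called 3, without Fam167a. These numbers are not taken to pair the MBH inputs. Deviations of same-numbered MBH inputs of different treatments correlated at -0.074 to 0.161 over 18 pairs, with 3 over 0.1. Pairs of input and IP or of MBH and DVC were not checked. The causes of these shifts were not tested. Limits include 3 libraries per group, the choice of tool, saline library 2, amplification from little RNA and many genes at 0 in single libraries.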
